A study of Homo sapiens with 18 samples.

Results

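RNA of LX-2 cells, an established line of human hepatic stellate cells, was sequenced after 24 h with thrombin and compared with control cells of the same time. Cells were plated at 180000 per well 48 h before treatment, held for 1 h in serum-free medium, and then kept for 24 h in serum-free medium containing thrombin at 1 U/mL or in serum-free medium alone. The comparison was chosen by the group and time in the library titles, and it used 3 thrombin and 3 control libraries of poly(A) RNA, 6 of the 18 libraries in the series; the other 12 came from the same treatments at 4 h and 48 h. Libraries carry the numbers 12, 13 and 14 within each group, and values below are given in that order. Whether the 3 numbers mark separate cultures is not given, so each p-value reflects how far these particular libraries vary, and that variation may be technical. All libraries came from 1 cell line, which limits them as a model of stellate cells in liver. Of 28278 gene symbols in the count table, 15353 passed the filter on low counts and were tested.

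Hepatic stellate cells store vitamin A in the resting liver and turn into contractile, matrix-producing myofibroblasts after injury. Thrombin, the protease that cleaves fibrinogen to fibrin, also cuts protease-activated receptors on cells, and these act through heterotrimeric G proteins on calcium, the actin cytoskeleton and the MAP kinases. Actin polymerization frees the cofactors MRTFA and MRTFB to act with the transcription factor SRF and also activates YAP and TAZ, the partners of TEAD factors.

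Total counts were between 14649813 and 18766685 in the 6 libraries of 24 h, against 14431044 to 23270601 over all 18. The 29 markers of stellate cells and myofibroblasts in the table summed to between 7840 and 8314 CPM (counts scaled to a library of 1000000, on TMM-scaled library sizes) in control and between 8637 and 9477 CPM in thrombin. Hepatocyte markers summed to between 60.5 and 67.1 CPM in control and between 63.7 and 75.2 CPM in thrombin, with 18 of 22 at 10 counts or fewer in every library and APOA2, APOC3, TTR, FGA, FGG and CYP3A4 at 0. Endothelial markers summed to between 60.6 and 69.4 CPM in control and between 57.3 and 74 CPM in thrombin, with LYVE1 and CLEC4G at 0, and macrophage and leukocyte markers to between 80.4 and 90.7 CPM and between 84.2 and 102 CPM, with CD163, VSIG4, TYROBP, CD3E and MS4A1 at 0. DCN, LUM, POSTN, CYGB and LRAT, which mark stellate cells or fibroblasts, were too low to test.

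The 4 h libraries went against the 24 h libraries in direction. At 4 h, 965 genes (6.29%) were called higher and 848 (5.52%) lower with thrombin. Of 961 genes called at both times, 948 had opposite signs. The libraries labelled control at 24 h and thrombin at 4 h differed in 11 of 15353 genes (0.0716%), 8 higher (0.0521%) and 3 lower (0.0195%) in the former. The 8 were 0 without control library 12 or 13 of 24 h, 3 without control library 14, and 5 without thrombin library 13 or 14 of 24 h, and the 3 were 1 without control library 12 or 13. On the first principal component of the 18 libraries, with 24.1% of the variance, control libraries of 24 h lay between 14.3 and 25.6 and the libraries labelled thrombin at 4 h between 9.49 and 17.3, while thrombin libraries of 24 h lay between −30.2 and −22.1 and those labelled control at 4 h between −23.7 and −6.66. Control libraries of 48 h lay between −3.79 and 1.28 on that component. Thrombin libraries of 48 h lay between 2.4 and 13.55, an order reverse to that at 24 h. Over all genes tested, log2 differences at 24 h correlated at −0.569 with those at 4 h and −0.256 with those at 48 h. Whether labels were exchanged at any time was not tested, and an exchange at 24 h would reverse every direction given for 24 h. Directions below follow the labels at 24 h, and 4 h groups are named as labelled.

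Thrombin libraries differed from control in 2700 genes at an adjusted p under 0.05 (edgeR's quasi-likelihood test over all 18 libraries, Benjamini-Hochberg adjusted), 17.6% of those tested. Of these, 1389 were higher with thrombin (9.05%) and 1311 lower (8.54%). Called differences of at least 2-fold numbered 231 higher (1.5%) and 153 lower (0.997%). All 3 thrombin libraries lay above all 3 control libraries in 2620 genes (17.1%) and below in 2611 (17%). Leaving out single libraries left between 913 and 1283 genes higher and between 785 and 1206 lower. The counts fell by over 1.5 times without control library 12 (913 higher and 838 lower), control library 13 (869 lower) and thrombin library 14 (785 lower). Higher calls outnumbered lower ones among abundant transcripts. Of 2663 genes at 100 CPM or more, 537 were higher and 155 lower, whereas of 7561 genes between 10 and 100 CPM, 628 were higher and 779 lower. Genes called higher made up 18.9% of counts in control and 25.4% in thrombin, and genes called lower 8.55% and 5.81%. The median log2 difference of all genes tested was 0.002. The counts of list members below stand beside these shares of all genes tested, 9.05% higher and 8.54% lower. Lists and their members were chosen with earlier results of these data known, so a larger share in a list is a description and not a test.

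**Figure D1:**
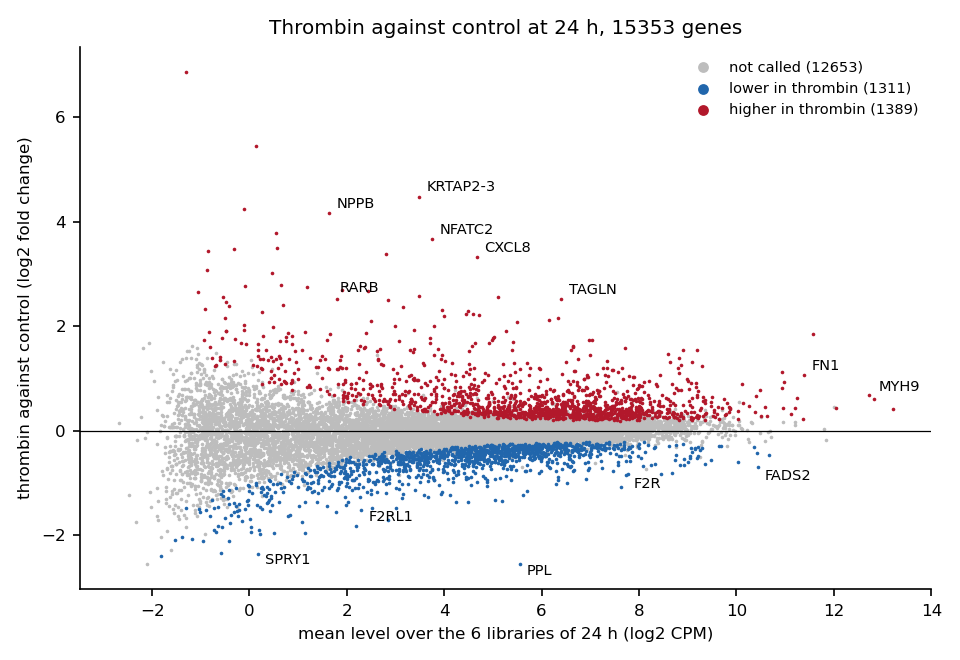
Log2 fold change of thrombin over control at 24 h (vertical axis) against the mean level over the 6 libraries in log2 CPM (horizontal axis) for the 15353 genes tested, with the 1389 higher and 1311 lower genes coloured. At 100 CPM and above the called genes lie mostly above 0, 537 against 155.

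The RNAs of PAR1 and PAR2, protease-activated receptors, were lower, and of 7 tested genes for such receptors and for thrombin-binding proteins 1 was higher and 4 lower. F2R, which encodes PAR1, the first thrombin receptor described (chr5:76716126-76735770), measured 266, 283 and 273 CPM in control and 162, 157 and 140.3 CPM in thrombin. Every thrombin library lay below every control library, and the level fell by 0.84 ± 0.08 (SE, edgeR adjusted p = 2.14e-08) on the log2 scale. F2RL1, which encodes PAR2, a receptor cut by trypsin-like proteases, measured 8.62, 5.94 and 7.39 CPM in control and 2.42, 2.17 and 2.99 CPM in thrombin, again with no overlap, and fell by 1.52 ± 0.23 (SE, edgeR adjusted p = 3.95e-05). SERPINE2, which encodes protease nexin-1, an inhibitor of thrombin on the cell surface, measured 151, 178 and 144 CPM in control and 80.9, 89.4 and 80.7 CPM in thrombin. It fell by 0.92 ± 0.10 (SE, edgeR adjusted p = 1.46e-07). F2RL3, the gene of PAR4, was too low to test, and F2RL2, the gene of PAR3, measured 1.74, 0.99 and 0.961 CPM in control and 0.269, 1.16 and 0.508 CPM in thrombin, groups that overlapped, with a log2 difference of −0.93 ± 0.41 (SE, edgeR adjusted p = 0.117); without thrombin library 13 it was −1.61, with an adjusted p of 0.0166. In bulk libraries such as these, fewer cells that express a gene and less RNA per cell cannot be told apart.

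Genes acting between these receptors and calcium moved in both directions. Of 21 genes for G protein subunits, phospholipase C and receptor kinases, 4 were higher and 2 lower. PLCB4, a phospholipase C that G proteins activate, rose by 0.75 ± 0.13 (SE, edgeR adjusted p = 0.000159), while GNG11, a G protein gamma subunit, fell by 0.59 ± 0.11 (SE, edgeR adjusted p = 0.000392) and GRK5, a kinase that desensitizes activated receptors, fell by 0.69 ± 0.08 (SE, edgeR adjusted p = 7.45e-07). The 4 higher were 2 without control library 12. NFATC2, a transcription factor that calcineurin activates when calcium rises (chr20:51386963-51562839), measured 2.41, 1.12 and 2.34 CPM in control and 28.1, 27.7 and 19.4 CPM in thrombin. The lowest thrombin library was several times the highest control library, and the rise was 3.67 ± 0.25 (SE, edgeR adjusted p = 2.64e-10) on the log2 scale, the largest of the 23 tested genes of calcium, NFAT and TRPC signalling. TRPC4, a cation channel opened downstream of phospholipase C, measured 1.94, 1.52 and 0.961 CPM in control and 12, 9.92 and 6.21 CPM in thrombin. It rose by 2.67 ± 0.28 (SE, edgeR adjusted p = 1.23e-07). In the other direction, ORAI3, a store-operated calcium channel subunit, measured 51.6, 47.5 and 41.3 CPM in control and 17.9, 20.2 and 17.8 CPM in thrombin. It fell by 1.33 ± 0.12 (SE, edgeR adjusted p = 7.7e-09). NFATC4, a second NFAT factor, fell by 0.53 ± 0.11 (SE, edgeR adjusted p = 0.00115), CAMK2D, a calcium/calmodulin-dependent kinase, fell by 0.56 ± 0.10 (SE, edgeR adjusted p = 0.000139), and ATP2B4, a pump that exports calcium, rose by 0.86 ± 0.12 (SE, edgeR adjusted p = 2.2e-05). The list held 4 higher and 6 lower genes, and the 6 lower were 3 without control library 13 or without thrombin library 14. RCAN1, a calcineurin-dependent target of NFAT, was not called, at 0.13 ± 0.10 (SE, edgeR adjusted p = 0.382).

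Genes of the contractile apparatus rose together. Of 20 smooth muscle contractile genes, 16 were higher and 0 lower, with a median log2 difference of 0.662 beside 0.002 over all genes. Among the regulators of that programme, MYOCD, the muscle-restricted SRF cofactor myocardin (chr17:12665890-12768949), measured 1.47, 1.78 and 3 CPM in control and 13.4, 8.02 and 6.04 CPM in thrombin, with no overlap, and rose by 2.11 ± 0.33 (SE, edgeR adjusted p = 9.44e-05). VGLL3, a cofactor of TEAD factors, measured 27, 26.1 and 35.1 CPM in control and 159, 131 and 107 CPM in thrombin and rose by 2.17 ± 0.16 (SE, edgeR adjusted p = 3.92e-09). TEAD1 itself rose by 0.66 ± 0.12 (SE, edgeR adjusted p = 0.000454). The RNAs of the broadly expressed cofactors MRTFA and MRTFB were not called, at 0.09 ± 0.10 (SE, edgeR adjusted p = 0.575) and 0.02 ± 0.12 (SE, edgeR adjusted p = 0.931), nor was that of SRF, at 0.06 ± 0.09 (SE, edgeR adjusted p = 0.695). Of 16 regulators tested, 6 were higher and 1 lower, and the 6 were 3 without control library 12 or without thrombin library 14.

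The CArG box is the sequence that SRF binds. It was searched for, on both strands, in the 250 bases before the RefSeq start (GRCh38.p14) of each gene. Shown are the 140 bases before the start of 3 higher genes that hold one, ACTG2, the smooth muscle gamma actin, FHL2, a LIM protein of focal adhesions, and PDGFA, a platelet-derived growth factor chain, at chr2:73892868-73893007 on the plus strand and at chr2:105438514-105438653 and chr7:520227-520366 on the minus strand, with the CArG boxes in capitals.
ACTG2: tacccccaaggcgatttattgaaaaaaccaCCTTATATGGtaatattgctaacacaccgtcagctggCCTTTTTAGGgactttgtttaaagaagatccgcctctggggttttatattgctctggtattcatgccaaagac
FHL2: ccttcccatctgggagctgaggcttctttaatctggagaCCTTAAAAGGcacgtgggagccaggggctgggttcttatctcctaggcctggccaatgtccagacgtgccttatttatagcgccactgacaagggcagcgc
PDGFA: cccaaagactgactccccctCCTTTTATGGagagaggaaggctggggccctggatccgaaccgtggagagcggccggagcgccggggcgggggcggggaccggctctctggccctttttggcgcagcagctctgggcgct
A CArG box was present in 1.03% of the 11609 promoters of tested genes, in 28 of 1071 promoters of higher genes (2.61%), in 7 of 1012 of lower genes (0.692%), and in 4 of 16 of the contractile list, those of ACTG2, CNN2, MYLK and TPM4. A match is a description of these letters and not a site of binding.

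ACTG2 measured 1.8, 2.51 and 2.82 CPM in control and 7, 5.84 and 8.12 CPM in thrombin. It rose by 1.55 ± 0.23 (SE, edgeR adjusted p = 2.75e-05). TAGLN, the actin-binding protein transgelin (chr11:117199294-117207465), measured 27.3, 23.6 and 24.6 CPM in control and 144, 139 and 149 CPM in thrombin. All 3 thrombin libraries were over 5 times every control library, and the rise was 2.52 ± 0.13 (SE, edgeR adjusted p = 8.21e-13), the largest of the contractile list. CALD1, the thin-filament protein caldesmon, measured 228, 246 and 254 CPM in control and 790.3, 676 and 658 CPM in thrombin. It rose by 1.54 ± 0.12 (SE, edgeR adjusted p = 8.03e-10). MYL9, the regulatory light chain of smooth muscle myosin, rose by 0.92 ± 0.09 (SE, edgeR adjusted p = 3.63e-08), CNN1, the actin-binding protein calponin, by 0.84 ± 0.13 (SE, edgeR adjusted p = 4.27e-05), and TPM1, a tropomyosin, by 0.85 ± 0.08 (SE, edgeR adjusted p = 1.49e-08). ACTA2, the smooth muscle alpha-actin used to mark activated stellate cells, measured 11.8, 10.8 and 9.73 CPM in control and 18, 15.7 and 19.1 CPM in thrombin, with no overlap, and rose by 0.71 ± 0.14 (SE, edgeR adjusted p = 0.000544). MYLK, the myosin light chain kinase, was not called, at 0.16 ± 0.12 (SE, edgeR adjusted p = 0.371), nor was DES, the stellate cell intermediate filament desmin, at 0.45 ± 0.44 (SE, edgeR adjusted p = 0.523).

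Of 30 genes for actin, focal adhesions and other SRF targets, 27 were higher and 1 lower, with a median of 0.552. FLNC, a filamin that crosslinks actin, measured 1266, 1246 and 1185 CPM in control and 2245, 2593 and 3190.3 CPM in thrombin. It rose by 1.12 ± 0.13 (SE, edgeR adjusted p = 8.35e-07). FHL2 measured 184, 186 and 192 CPM in control and 355, 374 and 349 CPM in thrombin and rose by 0.94 ± 0.07 (SE, edgeR adjusted p = 9.73e-10). PDLIM5 and LIMA1, LIM-domain proteins of actin bundles, rose by 1.02 and 1.00, ABLIM1, an actin-binding LIM protein, by 1.09, and ENAH, which elongates filaments at focal adhesions, by 0.84. ACTG1, a non-muscle actin, measured 5062, 5248 and 5277 CPM in control and 7933, 8687 and 8340.2 CPM in thrombin and rose by 0.68 ± 0.07 (SE, edgeR adjusted p = 6.33e-08), although reads of ACTG1 and ACTB may be shared with each other and with their many pseudogenes. MYH9, the heavy chain of non-muscle myosin, measured 5752, 5830.1 and 5558 CPM in control and 8412, 8746 and 9145 CPM in thrombin. It rose by 0.62 ± 0.08 (SE, edgeR adjusted p = 7.96e-06). VCL, ZYX and TLN1, the focal adhesion proteins vinculin, zyxin and talin, rose by 0.53, 0.68 and 0.45.

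**Figure D2:**
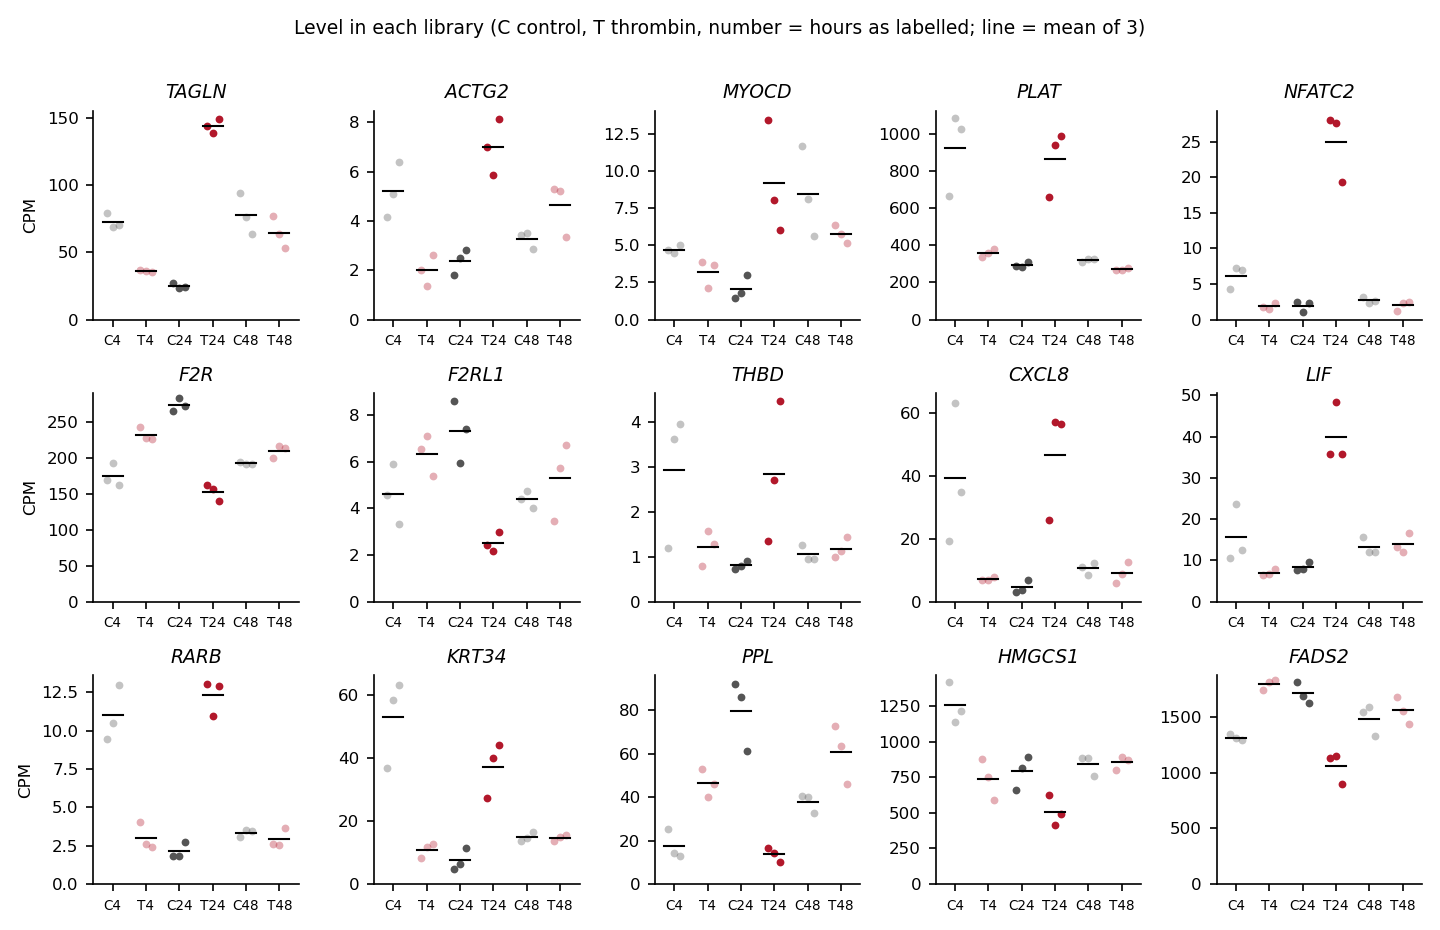
Level in CPM (vertical axis, from 0) of 15 genes in each of the 18 libraries, grouped as labelled (C control, T thrombin, with the hours), with 1 point per library and a line at each group's mean. At 24 h the thrombin points of TAGLN, ACTG2, MYOCD and PLAT all lie above the control points and those of F2R and F2RL1 all below, and at 48 h the groups of TAGLN overlap.

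YAP and TAZ targets rose with the actin genes, 13 higher and 0 lower of 20, with a median of 0.458. IGFBP3, which binds insulin-like growth factors, measured 2.81, 2.9 and 3.78 CPM in control and 9.28, 8.77 and 9.31 CPM in thrombin. It rose by 1.52 ± 0.17 (SE, edgeR adjusted p = 5.2e-07). ANKRD1, a standard YAP reporter gene, measured 15.6, 14 and 24.2 CPM in control and 44.9, 34.9 and 37.3 CPM in thrombin. It rose by 1.12 ± 0.19 (SE, edgeR adjusted p = 0.000347). CCN1 and CCN2, matricellular proteins of which CCN2 is a fibrosis mediator known as CTGF, rose by 0.96 ± 0.09 (SE, edgeR adjusted p = 3.48e-08) and 0.65 ± 0.12 (SE, edgeR adjusted p = 0.000668). CRIM1, a transmembrane BMP antagonist, rose by 1.10, DLC1, a GTPase-activating protein, by 1.07, and AXL, the receptor of GAS6, by 0.39. GAS6 itself fell by 0.47 ± 0.10 (SE, edgeR adjusted p = 0.00145). The TEAD motif GGAATG, searched on both strands, was in 9.72% of all promoters of tested genes and in 4 of 14 promoters of this list. Those 4 were the promoters of CCN2, ANKRD1 and NUAK2, which were higher, and of PTPN14, which was not called. The motif was in 11.5% of promoters of higher genes and in 12% of those of lower genes. It was in 14.9% of those of genes at least 2-fold higher and in 18.8% of those at least 2-fold lower.

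Early-response regulators were mixed at this time. Of 15 AP-1 genes tested, 4 were higher and 0 lower. FOSL1, which encodes the AP-1 subunit FRA1, measured 203, 226 and 254 CPM in control and 333, 464 and 479 CPM in thrombin and rose by 0.90 ± 0.16 (SE, edgeR adjusted p = 0.000564), FOSL2 rose by 0.58 ± 0.10 (SE, edgeR adjusted p = 0.000237). FOSB measured 1.47, 1.65 and 2.82 CPM in control and 4.98, 6.05 and 5.13 CPM in thrombin and rose by 1.43 ± 0.24 (SE, edgeR adjusted p = 0.000151). FOS, the subunit induced within minutes by growth factors, was not called, at −0.46 ± 0.22 (SE, edgeR adjusted p = 0.148), nor was ATF3, at −0.13 ± 0.19 (SE, edgeR adjusted p = 0.69). Of 25 EGR, KLF, NR4A and other early regulators, 7 were higher and 4 lower. MYC, a growth regulator, rose by 0.78 ± 0.08 (SE, edgeR adjusted p = 1.43e-07) and KLF5, a factor of proliferating smooth muscle, by 0.96 ± 0.13 (SE, edgeR adjusted p = 1.11e-05). KLF4, a factor that represses smooth muscle genes, measured 49.5, 57.5 and 50.3 CPM in control and 20, 25.3 and 17 CPM in thrombin. It fell by 1.34 ± 0.16 (SE, edgeR adjusted p = 2.68e-06). NR4A2, an orphan nuclear receptor, fell by 1.02 ± 0.17 (SE, edgeR adjusted p = 7.17e-05) and ZFP36, which destabilizes cytokine mRNAs, fell by 0.57 ± 0.13 (SE, edgeR adjusted p = 0.00235). EGR1, a target of ERK and SRF, measured 63, 65.4 and 51.7 CPM in control and 45.9, 46.3 and 19.6 CPM in thrombin, groups that did not overlap, with thrombin library 14 well below the other two, and was not called, at −0.69 ± 0.45 (SE, edgeR adjusted p = 0.329). Of 20 ERK feedback and ETV genes, 5 were higher and 4 lower; the 5 were 3 without thrombin library 14, and the 4 were 2 without control library 14 or thrombin library 13 and 1 without thrombin library 12. SPRY1, an inhibitor of growth factor signalling to ERK, measured 2.81, 1.45 and 1.38 CPM in control and 0.74, 0.136 and 0.226 CPM in thrombin. It fell by 2.35 ± 0.55 (SE, edgeR adjusted p = 0.00331). DUSP1 and DUSP10, phosphatases of MAP kinases, rose by 0.53 ± 0.12 (SE, edgeR adjusted p = 0.00272) and 0.63 ± 0.11 (SE, edgeR adjusted p = 0.00018).

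The chemokine and NF-kappa-B genes that were called were all higher. Of 12 chemokines tested, 6 were higher and 0 lower, with a median of 1.26, and 7 were too low to test, among them CXCL10 and CCL20. CXCL8, CXCL6 and CXCL1, which attract neutrophils, are neighbours on chromosome 4 and were all of the 3 tested genes between 73740569 and 73871308 there. The ends of that span are those of CXCL8 and CXCL1 themselves. Their promoters are shown because each holds an NF-kappa-B site, here in capitals, in the 140 bases before the start; in CXCL8 the first run of capitals is an AP-1 site (TGANTCA), and CXCL1 holds 2 NF-kappa-B sites. They lie on the plus strand at chr4:73740429-73740568, chr4:73836538-73836677 and chr4:73869253-73869392.
CXCL8: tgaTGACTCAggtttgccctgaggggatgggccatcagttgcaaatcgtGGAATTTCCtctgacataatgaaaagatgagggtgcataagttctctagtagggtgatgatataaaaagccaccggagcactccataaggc
CXCL6: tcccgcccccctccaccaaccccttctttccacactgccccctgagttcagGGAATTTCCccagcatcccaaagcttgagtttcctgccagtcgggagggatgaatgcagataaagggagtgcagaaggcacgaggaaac
CXCL1: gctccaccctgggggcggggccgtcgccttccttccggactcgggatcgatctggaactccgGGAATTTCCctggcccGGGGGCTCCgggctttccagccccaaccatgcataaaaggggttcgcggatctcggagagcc
An NF-kappa-B site was present in 16.6% of promoters of tested genes, in 17.7% of those of higher genes, in 15.9% of those of lower genes, in 25% of those of genes at least 2-fold higher, in 12.5% of those at least 2-fold lower, in 6 of 9 chemokine promoters and in 10 of 20 of the NF-kappa-B list. The 6 chemokine promoters were those of CXCL8, CXCL6 and CXCL1 and those of CXCL2, CXCL3 and CXCL5, which were tested and not called. An AP-1 site was present in 4.18% of promoters of tested genes, in 5.7% of those of higher genes, in 4.64% of those of lower genes, in 22 of 168 of genes at least 2-fold higher (13.1%), and in 4 of 96 of genes at least 2-fold lower (4.17%).

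CXCL8 measured 3.07, 3.63 and 7.03 CPM in control and 26, 57 and 56.5 CPM in thrombin. Thrombin library 12 was lower than the other two, but every thrombin library lay above every control library, and the rise was 3.33 ± 0.49 (SE, edgeR adjusted p = 0.000386). CXCL6 measured 3.88, 4.88 and 4.08 CPM in control and 11.9, 17.2 and 20 CPM in thrombin and rose by 1.94 ± 0.19 (SE, edgeR adjusted p = 4.51e-08). CXCL1 measured 9.16, 9.24 and 9.25 CPM in control and 16.1, 27.5 and 26.1 CPM in thrombin. It rose by 1.33 ± 0.26 (SE, edgeR adjusted p = 0.0013). CCL2, which attracts monocytes, measured 7.02, 4.95 and 5.17 CPM in control and 29.6, 29 and 20.2 CPM in thrombin and rose by 2.20 ± 0.23 (SE, edgeR adjusted p = 4.17e-07). CCL7, its close relative, measured 0.735, 0.66 and 0.36 CPM in control and 4.04, 4.55 and 3.22 CPM in thrombin and rose by 2.74 ± 0.36 (SE, edgeR adjusted p = 4.4e-06). CCL26, an attractant of eosinophils, rose by 1.72 ± 0.34 (SE, edgeR adjusted p = 0.000733). CXCL12, the constitutive chemokine of stromal cells, was not called, at −0.12 ± 0.17 (SE, edgeR adjusted p = 0.679). Of 22 genes of the NF-kappa-B list, 12 were higher and 0 lower, with a median of 0.514. TNFAIP3, the feedback inhibitor A20, measured 24.1, 28.2 and 30.3 CPM in control and 48.9, 66.1 and 65.3 CPM in thrombin. It rose by 1.13 ± 0.17 (SE, edgeR adjusted p = 6.42e-05). BIRC3 and BIRC2, ubiquitin ligases of TNF receptor signalling, rose by 0.97 and 0.78, RELB and NFKB1, subunits of the factor, by 0.83 and 0.58, and IRAK2, a kinase of interleukin 1 receptors, by 0.53. NFKBIA, the inhibitor subunit that is usually a sensitive target, was not called, at 0.07 ± 0.11 (SE, edgeR adjusted p = 0.721).

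Of 24 interleukin and IL-6 family genes, 5 were higher and 1 lower. LIF, an IL-6 family cytokine (chr22:30240453-30246759), measured 7.68, 7.99 and 9.61 CPM in control and 35.7, 48.5 and 35.9 CPM in thrombin, with no overlap, and rose by 2.24 ± 0.23 (SE, edgeR adjusted p = 1.15e-06). IL1B, an inflammatory cytokine, measured 11, 17 and 21 CPM in control and 38.6, 71.5 and 73.2 CPM in thrombin. It rose by 1.90 ± 0.33 (SE, edgeR adjusted p = 0.0013). IL6 measured 0.334, 0.594 and 0.36 CPM in control and 1.01, 1.16 and 0.903 CPM in thrombin, groups that did not overlap, but was not called, at 1.24 ± 0.50 (SE, edgeR adjusted p = 0.0932); with only the 6 libraries of 24 h it was called at 1.24, with an adjusted p of 0.0448. SOCS3, a feedback inhibitor that these cytokines induce, was not called, at 0.22 ± 0.11 (SE, edgeR adjusted p = 0.187). PTGS2, the inducible cyclooxygenase of prostaglandin synthesis, measured 0.869, 0.726 and 1.08 CPM in control and 0.336, 0.68 and 0.226 CPM in thrombin, without overlap but with a log2 difference that missed the threshold, −1.14 ± 0.53 (SE, edgeR adjusted p = 0.144).

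Interferon-stimulated and antigen presentation genes gave 3 higher and 14 lower of 41, with 24 not called and a median of −0.258. The 14 lower were 8 without control library 12, 9 without control library 13 and 7 without thrombin library 14. BST2, which tethers budding virions, measured 102, 90.9 and 73.4 CPM in control and 52.7, 60.3 and 50.7 CPM in thrombin. It fell by 0.70 ± 0.13 (SE, edgeR adjusted p = 0.000572). IFIT2, which inhibits translation of viral RNA, fell by 0.78 ± 0.17 (SE, edgeR adjusted p = 0.00155), ISG20, an exonuclease, fell by 0.61 ± 0.14 (SE, edgeR adjusted p = 0.00398), STAT2, a subunit of the interferon-activated factor ISGF3, fell by 0.54 ± 0.08 (SE, edgeR adjusted p = 2.31e-05), and IFI16, a DNA sensor, fell by 0.54 ± 0.10 (SE, edgeR adjusted p = 0.000611). Among the higher genes, GBP1, a guanylate-binding protein that interferon gamma induces, measured 51.1, 48.2 and 49 CPM in control and 195, 148 and 109.7 CPM in thrombin and rose by 1.61 ± 0.16 (SE, edgeR adjusted p = 3.26e-07), and SAMD9, an antiviral factor, rose by 1.07 ± 0.15 (SE, edgeR adjusted p = 2.14e-05). GBP1 and IFI44, which moved in opposite directions, both hold the interferon-stimulated response element, searched as TTTCNNTTTC on both strands, in the 140 bases before their starts. They are shown with the element in capitals, at chr1:89065209-89065348 on the minus strand and chr1:78649649-78649788 on the plus strand.
GBP1: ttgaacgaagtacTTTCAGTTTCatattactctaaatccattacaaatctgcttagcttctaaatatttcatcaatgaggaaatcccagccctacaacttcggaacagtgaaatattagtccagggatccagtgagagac
IFI44: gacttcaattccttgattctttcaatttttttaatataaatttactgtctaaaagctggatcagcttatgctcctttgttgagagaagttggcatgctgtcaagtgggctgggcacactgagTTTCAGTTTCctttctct
The element was present in 18 of 30 promoters of the list and in 2.4% of those of all tested genes. IFI44 measured 9.76, 11.9 and 15.7 CPM in control and 4.51, 5.98 and 4.85 CPM in thrombin and fell by 1.29 ± 0.20 (SE, edgeR adjusted p = 4.05e-05). Of 15 complement genes, 0 were higher and 4 lower. C2, a component of the classical pathway, measured 5.61, 4.88 and 4.45 CPM in control and 3.09, 2.85 and 2.09 CPM in thrombin and fell by 0.90 ± 0.20 (SE, edgeR adjusted p = 0.00271), C1RL, a protease related to C1r, fell by 0.67 ± 0.14 (SE, edgeR adjusted p = 0.00168). CLU, the chaperone clusterin, which inhibits the terminal complex, measured 470.1, 474 and 405 CPM in control and 269, 269 and 226 CPM in thrombin. It fell by 0.82 ± 0.10 (SE, edgeR adjusted p = 1.61e-06).

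Genes at the surface that start or limit coagulation and fibrinolysis moved in both directions, 6 higher and 3 lower of 16, with a median of 0.071. F3, which encodes tissue factor, the initiator of coagulation, measured 54.7, 58.2 and 76.9 CPM in control and 128, 141 and 149.5 CPM in thrombin. It rose by 1.14 ± 0.14 (SE, edgeR adjusted p = 3.02e-06). PLAT, the tissue plasminogen activator, measured 291, 283 and 313 CPM in control and 664, 941 and 992 CPM in thrombin and rose by 1.55 ± 0.14 (SE, edgeR adjusted p = 7.43e-08). SERPINB2, an inhibitor of plasminogen activators, measured 0.602, 0.462 and 1.86 CPM in control and 2.89, 6.86 and 9.65 CPM in thrombin. It rose by 2.70 ± 0.55 (SE, edgeR adjusted p = 0.00258). ANXA2, a cell-surface docking site for plasminogen, rose by 0.58 ± 0.10 (SE, edgeR adjusted p = 0.000187), with reads possibly shared with its pseudogenes. THBD, which encodes thrombomodulin, the receptor that turns thrombin into an anticoagulant, measured 0.735, 0.792 and 0.901 CPM in control and 1.34, 2.72 and 4.46 CPM in thrombin and rose by 1.82 ± 0.43 (SE, edgeR adjusted p = 0.00376); the thrombin libraries ranged widely, and without library 14 of thrombin the difference was 1.31, with an adjusted p of 0.0606. TSPAN15, a tetraspanin that guides the protease ADAM10, fell by 0.68 ± 0.15 (SE, edgeR adjusted p = 0.00212).

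TGF-beta family genes gave 13 higher and 0 lower of 24, with a median of 0.271. TGFB2 measured 16.9, 15.1 and 11.2 CPM in control and 68.3, 50.8 and 26 CPM in thrombin and rose by 1.75 ± 0.36 (SE, edgeR adjusted p = 0.0047), whereas TGFB1, the ligand most studied in liver fibrosis, was not called, at −0.04 ± 0.08 (SE, edgeR adjusted p = 0.772). LRRC32, which holds latent TGF-beta on the cell surface, measured 0.602, 0.264 and 1.02 CPM in control and 2.15, 1.83 and 1.69 CPM in thrombin and rose by 1.55 ± 0.38 (SE, edgeR adjusted p = 0.00494). TGFBI, a matrix protein that TGF-beta induces, rose by 1.32 ± 0.11 (SE, edgeR adjusted p = 3.19e-09), SMAD3, a signal transducer of the receptors, by 0.98 ± 0.09 (SE, edgeR adjusted p = 5.56e-09), and the feedback inhibitors SMAD7 and SKIL by 0.90 and 0.83. The receptors TGFBR1 and TGFBR2 were not called, at −0.01 and −0.01. In the activin and BMP list, 5 of 19 were higher and 2 lower. INHBA, the activin A subunit, measured 8.55, 9.63 and 11.6 CPM in control and 48.4, 66 and 62.1 CPM in thrombin and rose by 2.56 ± 0.25 (SE, edgeR adjusted p = 1.47e-06), and INHBB, the activin B subunit, rose by 1.57 ± 0.20 (SE, edgeR adjusted p = 7.6e-06). GREM1, an extracellular BMP antagonist, measured 297, 332 and 482 CPM in control and 856, 943 and 844 CPM in thrombin and rose by 1.25 ± 0.17 (SE, edgeR adjusted p = 6.32e-05), and BMP4, a ligand it binds, fell by 0.44 ± 0.11 (SE, edgeR adjusted p = 0.00692).

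Growth factor ligands and receptors were higher in 13 and lower in 2 of 27 for the PDGF, FGF and VEGF families, with a median of 0.32; the 2 lower were 0 without control library 14 and 1 without control library 13 or any 1 thrombin library. PDGFA, whose promoter is printed with that of ACTG2, measured 23.5, 22.4 and 24 CPM in control and 40.3, 48.1 and 43.5 CPM in thrombin and rose by 0.92 ± 0.10 (SE, edgeR adjusted p = 1.67e-07), PDGFB, the chain that is the main mitogen of stellate cells, measured 12, 13.1 and 15.5 CPM in control and 32.9, 29.6 and 22.4 CPM in thrombin and rose by 1.06 ± 0.14 (SE, edgeR adjusted p = 4.87e-06). PDGFRA, a receptor for both, measured 0.869, 2.05 and 1.62 CPM in control and 4.17, 3.74 and 4.46 CPM in thrombin. It rose by 1.44 ± 0.27 (SE, edgeR adjusted p = 0.00041). PDGFRB was not called, at −0.29 ± 0.16 (SE, edgeR adjusted p = 0.245), but was called without the filter on low counts (adjusted p = 0.0313). FGF1 and FGF2 rose by 1.52 ± 0.13 (SE, edgeR adjusted p = 3.92e-09) and 1.33 ± 0.10 (SE, edgeR adjusted p = 1.78e-09). ESM1, a VEGF-responsive proteoglycan, measured 2.74, 5.08 and 7.75 CPM in control and 12.9, 27.3 and 37.6 CPM in thrombin and rose by 2.31 ± 0.51 (SE, edgeR adjusted p = 0.00692), VEGFA, the vascular growth factor, by 0.69 ± 0.12 (SE, edgeR adjusted p = 0.000246), and NRP2, a coreceptor for VEGF and semaphorins, by 1.03 ± 0.11 (SE, edgeR adjusted p = 1.16e-07). Of 13 EGF family genes, 4 were higher and 1 lower: HBEGF, a ligand of the EGF receptor, rose by 0.95 ± 0.13 (SE, edgeR adjusted p = 6.71e-06), EGF by 1.72 ± 0.33 (SE, edgeR adjusted p = 0.000603), the neuregulin NRG1 by 1.20 ± 0.11 (SE, edgeR adjusted p = 2.16e-08) and the receptor EGFR by 0.54 ± 0.14 (SE, edgeR adjusted p = 0.00726). In the IGF list, 7 of 14 were higher and 2 lower, with 4 of the 7 left without control library 12 or thrombin library 14. The 2 lower were 0 without control library 12 or 13 or thrombin library 12 or 14. IGFBP6, a binding protein with preference for IGF-II, rose by 1.05, STC2, an inhibitor of the IGFBP protease pappalysin, by 0.94, and the receptor IGF1R by 0.94.

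Vasoactive genes gave 4 higher and 4 lower of 26, where 9.05% of all tested genes were higher and 8.54% lower; the 4 higher were 7 when all 6 libraries numbered 12 were left out. EDN1, the precursor of the vasoconstrictor endothelin-1, measured 2.74, 1.85 and 3.06 CPM in control and 8.07, 8.49 and 7.05 CPM in thrombin and rose by 1.61 ± 0.19 (SE, edgeR adjusted p = 1.15e-06). EDNRA, its receptor, measured 4.75, 3.23 and 3.36 CPM in control and 2.08, 0.748 and 1.52 CPM in thrombin. It fell by 1.37 ± 0.27 (SE, edgeR adjusted p = 0.000812). NPPB, the precursor of brain natriuretic peptide, measured 0.535, 0.066 and 0.36 CPM in control and 5.58, 5.5 and 6.54 CPM in thrombin. The gene was close to undetected in control, at under 1 CPM in every library, and rose by 4.17 ± 0.35 (SE, edgeR adjusted p = 3.92e-09). NPR2, the guanylyl cyclase that is the receptor of C-type natriuretic peptide, fell by 0.88 ± 0.20 (SE, edgeR adjusted p = 0.00223), as did GUCY1B1, a subunit of the nitric oxide receptor, by 0.51 ± 0.14 (SE, edgeR adjusted p = 0.0111). S1PR1 and S1PR3, receptors of sphingosine 1-phosphate, rose by 1.24 ± 0.25 (SE, edgeR adjusted p = 0.0015) and 0.90 ± 0.10 (SE, edgeR adjusted p = 3.87e-07).

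Matrix genes were higher in part. Of 32 matricellular and adhesive glycoproteins, 14 were higher and 3 lower, with a median of 0.253. FN1, which encodes fibronectin, measured 1865, 1743 and 1588 CPM in control and 3895, 3542 and 3467 CPM in thrombin. It rose by 1.07 ± 0.17 (SE, edgeR adjusted p = 0.000219). TNC, the injury-linked glycoprotein tenascin C, measured 231, 193 and 190.4 CPM in control and 646, 559.5 and 499 CPM in thrombin and rose by 1.47 ± 0.20 (SE, edgeR adjusted p = 7.98e-05), and THBS1, thrombospondin 1, an activator of latent TGF-beta, rose by 1.40 ± 0.12 (SE, edgeR adjusted p = 5.37e-09). LAMC1, a laminin gamma chain, rose by 0.78, FBN1, the microfibril protein fibrillin, by 0.81 and SPARC, a collagen-binding protein, by 0.60. EMILIN1, an elastic fibre protein that restrains TGF-beta processing, measured 3.07, 3.76 and 2.82 CPM in control and 1.41, 1.56 and 1.8 CPM in thrombin and fell by 1.00 ± 0.25 (SE, edgeR adjusted p = 0.00635). ITGA5 and ITGB1, which together form the fibronectin receptor, rose by 1.27 ± 0.10 (SE, edgeR adjusted p = 2.27e-09) and 0.63 ± 0.11 (SE, edgeR adjusted p = 0.000159), and ITGB8, ITGA4 and ITGB3 by 1.26, 1.08 and 0.88, within 6 higher and 2 lower of 17 integrin genes. SDC4, a syndecan of focal adhesions, rose by 1.02 ± 0.08 (SE, edgeR adjusted p = 1.9e-09).

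Collagen chains gave 10 higher and 3 lower of 22, with a median of 0.22; the 10 were 6 without control library 13 or without thrombin library 12. COL1A1, the alpha 1 chain of type I collagen, measured 2199, 2088 and 1743 CPM in control and 2620.3, 2724 and 2804 CPM in thrombin. It rose by 0.43 ± 0.10 (SE, edgeR adjusted p = 0.00338). COL5A1 rose by 0.64, and COL4A1 and COL4A2, chains of basement membrane collagen encoded side by side, by 0.82 and 0.47. COL6A1 and COL6A2, chains of the beaded filament collagen VI, fell by 0.55 ± 0.11 (SE, edgeR adjusted p = 0.000922) and 0.51 ± 0.12 (SE, edgeR adjusted p = 0.00393), and COL4A5 fell by 0.61 ± 0.08 (SE, edgeR adjusted p = 6.3e-06). COL3A1, the second main fibrillar collagen of scar, was not called, at −0.73 ± 0.26 (SE, edgeR adjusted p = 0.0655), although it was called at −0.88 without control library 14 (adjusted p = 0.0421), at −0.92 without thrombin library 12 (adjusted p = 0.047) and at −0.73 by DESeq2 (adjusted p = 0.039). It was also called at −0.76 without all libraries numbered 12 (adjusted p = 0.0218) and at −0.73 without the filter on low counts (adjusted p = 2.03e-14). Without the filter its log2 difference was that of the main fit, and why the adjusted p fell was not tested. LOXL2, a lysyl oxidase that crosslinks collagen, measured 329, 302 and 308 CPM in control and 752, 799 and 782 CPM in thrombin and rose by 1.31 ± 0.10 (SE, edgeR adjusted p = 5.1e-10), while its relative LOXL3 fell by 1.05 ± 0.18 (SE, edgeR adjusted p = 0.000204), and PLOD2, which hydroxylates collagen lysines, rose by 0.59 ± 0.11 (SE, edgeR adjusted p = 0.000317). Of 25 matrix proteases and inhibitors, 10 were higher and 0 lower, with a median of 0.475. ADAM19, a membrane protease, measured 49.1, 50.7 and 47 CPM in control and 139, 148 and 167 CPM in thrombin and rose by 1.63 ± 0.14 (SE, edgeR adjusted p = 7.93e-09), MMP9, a gelatinase, rose by 1.30 ± 0.20 (SE, edgeR adjusted p = 0.000121), ADAMTS15, a protease of proteoglycans, by 1.28 ± 0.20 (SE, edgeR adjusted p = 4.06e-05), and TIMP3, a matrix-bound inhibitor, by 1.20 ± 0.08 (SE, edgeR adjusted p = 3.01e-10). MMP2, the gelatinase typical of stellate cells, and TIMP1, the inhibitor raised in fibrosis, were not called, at −0.08 ± 0.20 (SE, edgeR adjusted p = 0.834) and 0.18 ± 0.09 (SE, edgeR adjusted p = 0.167).

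Hair keratin genes formed the longest run of neighbours that rose by at least 2-fold. On chromosome 17 between 41026026 and 41467386, all 7 tested genes were higher by at least 2-fold, namely KRTAP1-5, KRTAP2-1, KRTAP2-3, KRTAP2-4, KRT33B, KRT34 and KRT32 (KRTAP2-1 and KRT32 are named after their values were seen), where runs were built by joining genes at most 500000 bases apart. The ends of a run are those of its outermost members. Keratins are epithelial intermediate filaments, and KRT33B, KRT34 and the keratin-associated proteins are best known from hair. KRT34 measured 4.88, 6.47 and 11.3 CPM in control and 27.4, 40.1 and 44.3 CPM in thrombin. It rose by 2.29 ± 0.27 (SE, edgeR adjusted p = 2e-05). KRT33B measured 0.0668, 0.132 and 0.36 CPM in control and 2.15, 2.45 and 3.55 CPM in thrombin and rose by 3.79 ± 0.50 (SE, edgeR adjusted p = 5.04e-06). KRTAP1-5 measured 0.134, 0.33 and 0.24 CPM in control and 1.95, 2.85 and 3.38 CPM in thrombin. It rose by 3.51 ± 0.53 (SE, edgeR adjusted p = 2.94e-05). KRTAP2-3 measured 0.134, 0.66 and 1.98 CPM in control and 12.8, 21.4 and 30.1 CPM in thrombin and rose by 4.48 ± 0.49 (SE, edgeR adjusted p = 1.02e-05). KRTAP2-1 had 0 counts over the control libraries and 40 over the thrombin libraries, and was at least 13.2-fold higher against a floor of 3 counts over the group. KRTAP2-4 had 2 counts in control and 105 in thrombin, a ratio of 51.9 with an exact 95% interval of 14 to 434 that covers counting error only. KRTAP2-3 and KRTAP2-4 are near-identical copies, so their reads may be exchanged. On chromosome 12, KRT81 measured 8.29, 7.99 and 6.73 CPM in control and 28, 39.8 and 39.9 CPM in thrombin and rose by 2.23 ± 0.20 (SE, edgeR adjusted p = 3.07e-08), with reads possibly shared with its relative KRT86. The simple epithelial pair KRT8 and KRT18 rose by 0.77 ± 0.13 (SE, edgeR adjusted p = 0.000179) and 0.78 ± 0.11 (SE, edgeR adjusted p = 1.06e-05), and the keratin list as a whole had 8 higher and 0 lower of 18. The 12 cholangiocyte and epithelial markers, which include KRT8 and KRT18, summed to between 331 and 361 CPM in control and between 381 and 535 CPM in thrombin, with ESRP1, a splicing factor of epithelial cells, at 0 and EPCAM, CDH1, CFTR and CLDN7 too low to test. Their part in the keratin differences was not tested.

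Cell contact genes moved in both directions. Of 23 cadherin, protocadherin and junction genes, 8 were higher and 4 lower. CDH6, a type II cadherin, measured 2.81, 2.18 and 2.76 CPM in control and 6.32, 7.27 and 9.48 CPM in thrombin and rose by 1.58 ± 0.20 (SE, edgeR adjusted p = 3.96e-06), CDH2, the mesenchymal N-cadherin, rose by 1.06 ± 0.09 (SE, edgeR adjusted p = 3.92e-09), and CDH11, the cadherin of activated fibroblasts, by 0.95 ± 0.17 (SE, edgeR adjusted p = 0.000328). PPL, which encodes periplakin, a linker of keratin filaments to desmosomes (chr16:4882507-4937148), measured 92.1, 86.4 and 61.1 CPM in control and 16.5, 14.5 and 10 CPM in thrombin. The lowest control library was over 3 times the highest thrombin library. Thrombin libraries were 5.87-fold lower, a log2 difference of −2.55 ± 0.26 (SE, edgeR adjusted p = 4.87e-06). GJB2, the gap junction protein connexin 26, fell by 1.18 ± 0.27 (SE, edgeR adjusted p = 0.003) and PCDH18, a protocadherin, fell by 1.22 ± 0.17 (SE, edgeR adjusted p = 9.66e-06). GJA1, connexin 43, was not called, at 0.18 ± 0.15 (SE, edgeR adjusted p = 0.423).

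Cholesterol synthesis genes fell together, 18 lower and 0 higher of 22, with a median of −0.56, where 8.54% of all tested genes were lower. HMGCS1, the enzyme that makes the precursor of mevalonate (chr5:43287470-43313412), measured 663, 819 and 895 CPM in control and 624, 415 and 491 CPM in thrombin. It fell by 0.64 ± 0.14 (SE, edgeR adjusted p = 0.0035). MSMO1, the sterol C4 methyl oxidase, measured 239.6, 276 and 324 CPM in control and 189, 139 and 148 CPM in thrombin and fell by 0.82 ± 0.12 (SE, edgeR adjusted p = 3.38e-05). TM7SF2, a sterol C14 reductase, measured 69.9, 79.7 and 66.6 CPM in control and 32.7, 38.2 and 26.5 CPM in thrombin. It fell by 1.15 ± 0.15 (SE, edgeR adjusted p = 1.49e-05). The falls ran along the pathway from MVK, mevalonate kinase, which fell by 0.74, and MVD, mevalonate decarboxylase, which fell by 0.71, to FDFT1, squalene synthase, which fell by 0.65, and DHCR7, the last reductase, which fell by 0.65. Of 21 genes of sterol sensing and transport, 1 was higher and 7 lower. SREBF2 and SREBF1, which encode the sterol-regulated factors SREBP2 and SREBP1, fell by 0.37 ± 0.08 (SE, edgeR adjusted p = 0.00155) and 0.57 ± 0.14 (SE, edgeR adjusted p = 0.00498). ABCA1, the exporter of cholesterol that liver X receptors induce, measured 59.8, 44.9 and 44.7 CPM in control and 156, 133 and 148 CPM in thrombin, with no overlap, and rose by 1.55 ± 0.19 (SE, edgeR adjusted p = 1.18e-05). The sterol regulatory element TCACNCCAC, searched on both strands, was in 0 of 17 promoters of the cholesterol list and in 0.836% of all promoters of tested genes, and its absence says only that these letters are not in those 250 bases.

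Fatty acid genes were lower in 11 and higher in 3 of 33, with a median of −0.21. The 3 higher were 0 without control library 13. FADS2, a desaturase of polyunsaturated fatty acids, measured 1811, 1692 and 1629 CPM in control and 1129, 1151 and 895 CPM in thrombin. It fell by 0.69 ± 0.09 (SE, edgeR adjusted p = 4.62e-06). FADS1, its neighbour and partner enzyme, fell by 0.65 ± 0.09 (SE, edgeR adjusted p = 7.64e-06). SCD, the stearoyl desaturase, fell by 0.47 ± 0.08 (SE, edgeR adjusted p = 0.000184), FASN, fatty acid synthase, fell by 0.43 ± 0.10 (SE, edgeR adjusted p = 0.00312), and ACSS2, which makes acetyl-CoA from acetate, fell by 0.77 ± 0.09 (SE, edgeR adjusted p = 1.7e-06). PLIN2, the coat protein of lipid droplets, measured 8.02, 7.59 and 7.39 CPM in control and 4.64, 4.01 and 4.57 CPM in thrombin. It fell by 0.80 ± 0.19 (SE, edgeR adjusted p = 0.0034). CPT1A, which admits fatty acids to mitochondria, fell by 0.57 ± 0.10 (SE, edgeR adjusted p = 0.000126). PPARGC1A, a coactivator of mitochondrial genes, measured 1.87, 1.45 and 1.56 CPM in control and 0.404, 0.476 and 0.395 CPM in thrombin and fell by 1.93 ± 0.47 (SE, edgeR adjusted p = 0.00528). PPARG, the adipogenic regulator of quiescent stellate cells, was too low to test.

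Retinoid genes, which handle the vitamin A that stellate cells store, gave 5 higher and 1 lower of 15. RARB encodes the retinoic acid receptor beta, whose promoter is the textbook example of a retinoic acid response element with a spacing of 5 bases (DR5). It is shown with that element in capitals, at chr3:25428123-25428262 on the plus strand; the element, searched on both strands, was in 6 of the 11609 promoters of tested genes (0.0517%).
RARB: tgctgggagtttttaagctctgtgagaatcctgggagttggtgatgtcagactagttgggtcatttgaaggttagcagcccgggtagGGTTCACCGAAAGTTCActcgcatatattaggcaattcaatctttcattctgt
RARB measured 1.8, 1.85 and 2.76 CPM in control and 13.1, 10.9 and 12.9 CPM in thrombin, and all 3 thrombin libraries were over 3 times every control library; the rise was 2.51 ± 0.20 (SE, edgeR adjusted p = 2.74e-09). DHRS3, which reduces retinal to retinol and is itself induced by retinoic acid, measured 1.34, 1.12 and 0.661 CPM in control and 5.58, 6.46 and 5.81 CPM in thrombin. It rose by 2.52 ± 0.27 (SE, edgeR adjusted p = 1.84e-07). CYP26B1, which degrades retinoic acid, measured 10.4, 9.96 and 7.63 CPM in control and 22.1, 22.1 and 17.3 CPM in thrombin and rose by 1.14 ± 0.14 (SE, edgeR adjusted p = 2.65e-06). ALDH1A3, which makes it from retinal, measured 13.5, 14.8 and 13 CPM in control and 28.2, 31.4 and 30.1 CPM in thrombin. It rose by 1.12 ± 0.13 (SE, edgeR adjusted p = 5.97e-07). RARA and RXRA, the receptor and its partner, were not called, at −0.25 and −0.09, and LRAT, which stores retinol as ester, was too low to test.

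Proliferation genes differed by little. Of 36 mitosis genes, 18 were higher and 0 lower, but the median was 0.237, and the 18 were 6 without control library 12, 6 without control library 13, 7 without thrombin library 12 and 6 without thrombin library 14. ANLN, the actin-binding protein anillin of the cleavage furrow, moved most, by 0.58 ± 0.11 (SE, edgeR adjusted p = 0.000383), followed in size among genes kept in every setting by KIF23 at 0.42 and KIF20A at 0.40, kinesins of the midbody. Of 37 replication and G1/S genes, 8 were higher and 1 lower; the 8 were 5 without control library 12, 4 without control library 13 and 5 without thrombin library 14. CDK6, a G1 kinase, rose by 0.78 ± 0.15 (SE, edgeR adjusted p = 0.000717), while CCND2, a cyclin that binds it, fell by 0.72 ± 0.17 (SE, edgeR adjusted p = 0.00467) and CCND1 was not called, at 0.55 ± 0.23 (SE, edgeR adjusted p = 0.116). CCND1 was called at 0.57 without all libraries numbered 12 (adjusted p = 0.00819) and at 0.54 without the filter on low counts (adjusted p = 5.18e-09). Without the filter its log2 difference hardly moved, and why the adjusted p fell was not tested. Of 30 p53 targets and kinase inhibitors, 2 were higher and 7 lower. CDKN1A, the inhibitor p21, measured 89.5, 81.6 and 82.9 CPM in control and 50.4, 62.7 and 49.6 CPM in thrombin and fell by 0.64 ± 0.10 (SE, edgeR adjusted p = 8.68e-05), BTG2, an antiproliferative p53 target, fell by 0.95 ± 0.18 (SE, edgeR adjusted p = 0.0005), and BBC3, the proapoptotic PUMA, fell by 0.68 ± 0.15 (SE, edgeR adjusted p = 0.00253). TXNIP, a thioredoxin-binding protein that glucose induces, measured 126, 115 and 101 CPM in control and 74.2, 78 and 62.5 CPM in thrombin. It fell by 0.68 ± 0.11 (SE, edgeR adjusted p = 5.44e-05).

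Stress and metabolic lists differed among themselves. SLC7A5, the large neutral amino acid transporter, measured 14.8, 13.7 and 15 CPM in control and 35.6, 53.3 and 50 CPM in thrombin and rose by 1.67 ± 0.14 (SE, edgeR adjusted p = 3.92e-09), and SLC7A1, which carries cationic amino acids, rose by 0.72 ± 0.12 (SE, edgeR adjusted p = 8.34e-05), within 7 higher and 2 lower of 29 ATF4 and amino acid response genes, the 2 lower being 0 without control library 14 and 1 without control library 12 or 13 or thrombin library 12. ATF4 itself was not called, at 0.16 ± 0.09 (SE, edgeR adjusted p = 0.27); it was called at 0.25 without all libraries numbered 12 (adjusted p = 0.0398). Of 25 ER folding genes 1 was higher, HSPA5, the chaperone BiP, by 0.40 ± 0.07 (SE, edgeR adjusted p = 0.000462). Among NRF2 targets, 7 of 24 were higher and 0 lower, or 4 without control library 12 or thrombin library 14. NQO1, GCLM and TXNRD1, antioxidant enzymes, rose by 0.61, 0.67 and 0.60. Glycolysis and hypoxia genes gave 7 higher and 5 lower of 29, and the 5 lower were 3 without thrombin library 12. LDHA, lactate dehydrogenase A, rose by 0.43, and SLC2A1, the glucose transporter GLUT1, fell by 0.48. Lysosomal genes gave 10 lower and 1 higher of 29, with 18 not called and a median of −0.162. The 1 higher was 3 without all libraries numbered 12. CTSS, a cathepsin, measured 6.28, 6.01 and 5.35 CPM in control and 2.62, 2.24 and 1.98 CPM in thrombin and fell by 1.37 ± 0.21 (SE, edgeR adjusted p = 3.19e-05), NEU1, a sialidase, fell by 0.57 ± 0.09 (SE, edgeR adjusted p = 2.75e-05). CTSL, another cathepsin, measured 132, 149.5 and 165 CPM in control and 179, 218 and 285 CPM in thrombin and rose by 0.61 ± 0.14 (SE, edgeR adjusted p = 0.00254). Ribosome biogenesis genes gave 8 higher and 0 lower of 30, or 3 without control library 12 and 5 without thrombin library 14, with DDX21, a nucleolar helicase, higher by 0.56 ± 0.12 (SE, edgeR adjusted p = 0.00105).

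Of 31 Wnt and Notch genes, 1 was higher and 2 lower; the 2 lower were 5 without control library 14 and 1 without control library 12 or 13 or thrombin library 12 or 13, and the 1 higher was 3 with only the 6 libraries of 24 h. WNT5B rose by 0.73 ± 0.09 (SE, edgeR adjusted p = 3.62e-06). Hedgehog genes gave 0 higher and 4 lower of 12, or 2 without all libraries numbered 12. GLI1 and PTCH1, the standard targets that report pathway activity, fell by 0.78 ± 0.15 (SE, edgeR adjusted p = 0.000407) and 0.64 ± 0.11 (SE, edgeR adjusted p = 0.000142). Guidance genes gave 8 higher and 4 lower of 28, with 5 of the 8 left without control library 12 or thrombin library 13. RELN, the secreted protein reelin, which marks hepatic stellate cells, measured 0.735, 0.858 and 1.98 CPM in control and 11.4, 12 and 14.6 CPM in thrombin. It rose by 3.38 ± 0.36 (SE, edgeR adjusted p = 8.17e-07). SLIT2 and SLIT3, secreted ligands of ROBO receptors, rose by 0.81 ± 0.11 (SE, edgeR adjusted p = 9.16e-06) and 1.37 ± 0.19 (SE, edgeR adjusted p = 1.14e-05), NRXN3, a neurexin adhesion protein, by 1.79 ± 0.12 (SE, edgeR adjusted p = 2.64e-10), while SLITRK4, a synaptic adhesion protein, fell by 1.48 ± 0.20 (SE, edgeR adjusted p = 5.31e-06) and EPHB4, an ephrin receptor, by 0.48 ± 0.09 (SE, edgeR adjusted p = 0.000342). Among the stellate cell and myofibroblast markers, 7 of 23 were higher and 3 lower. HAND2, a transcription factor of the stellate lineage, fell by 0.74 ± 0.17 (SE, edgeR adjusted p = 0.0031), and PDGFRB and NT5E were not called, at −0.29 and 0.20. The 3 lower were 5 without control library 14 or with only the 6 libraries of 24 h, and 8 without the filter on low counts.

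**Figure D3:**
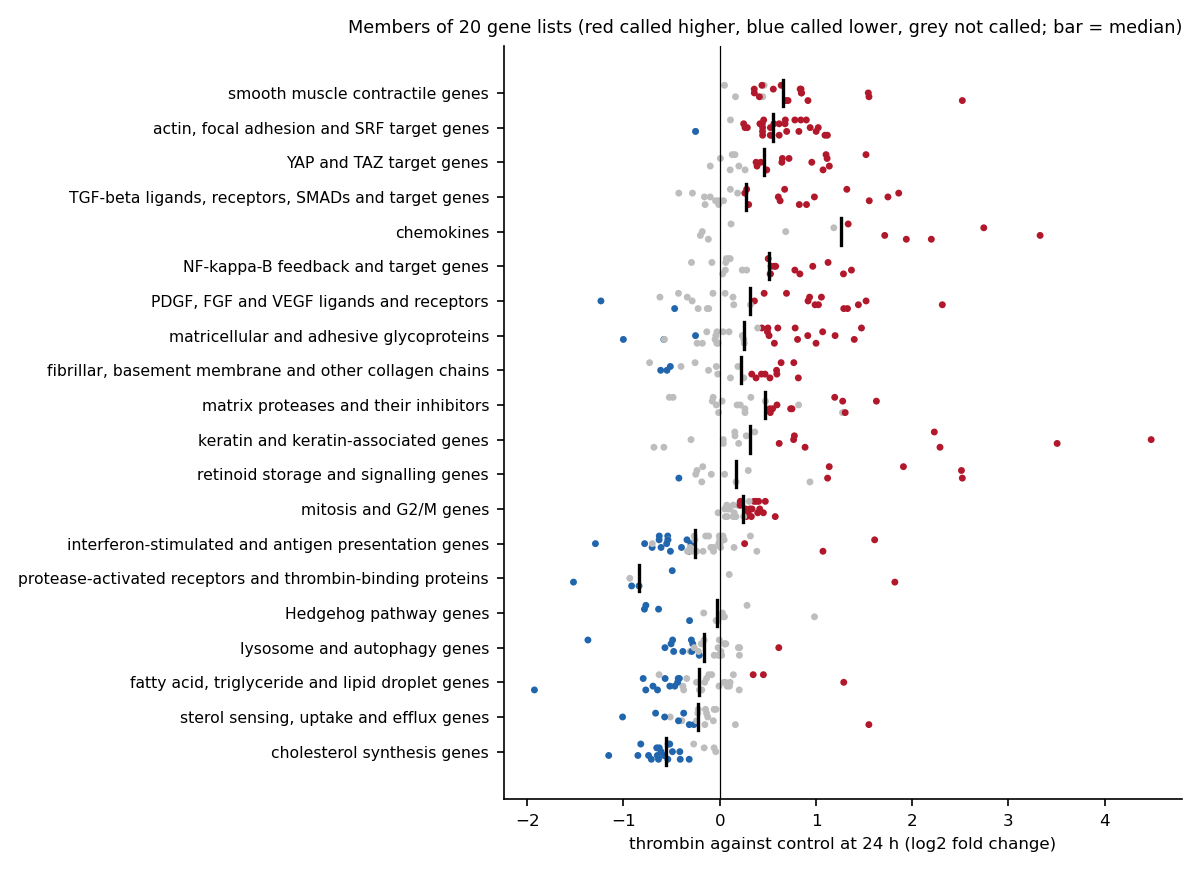
Log2 fold change of thrombin over control at 24 h (horizontal axis) of every tested member of 20 gene lists (rows), 1 point per gene, red where called higher, blue where called lower and grey where not called, with a bar at the median of the list. Contractile genes (16 of 20 higher) and actin genes (27 of 30) lie to the right of 0 and cholesterol synthesis genes (18 of 22 lower) to the left.

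Among called genes with a mean of 1 CPM or more, the deepest log2 fall was that of PPL. KCP, a secreted regulator of BMPs, measured 1.74, 1.91 and 1.86 CPM in control and 0.404, 0.612 and 0.395 CPM in thrombin. It fell by 1.96 ± 0.38 (SE, edgeR adjusted p = 0.00055). ASS1, which makes argininosuccinate in arginine synthesis, measured 1.2, 2.18 and 1.44 CPM in control and 0.404, 0.408 and 0.508 CPM in thrombin. It fell by 1.84 ± 0.37 (SE, edgeR adjusted p = 0.000917). METTL7A, a methyltransferase found on lipid droplets, measured 7.42, 7.79 and 6.07 CPM in control and 1.41, 2.65 and 1.98 CPM in thrombin and fell by 1.81 ± 0.25 (SE, edgeR adjusted p = 1.02e-05). In mean CPM, the largest falls included those of the lipid enzymes FADS2, SCD and FASN and of DCBLD2, a membrane protein, and the largest gains included those of ACTG1, MYH9, FLNA and FN1. Of 1056 long non-coding RNAs tested, 52 were higher and 53 lower, against 1294 and 1232 of 13432 protein-coding genes.

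At 48 h the same contrast gave 0 called genes (1110 at an unadjusted p under 0.05, and 14 called by DESeq2), and the difference between the 2 effects was tested directly. The thrombin effect was higher at 24 h than at 48 h in 1026 genes (6.68%) and lower in 1100 (7.16%), together 13.8% of those tested. Of the 2700 genes called at 24 h, 1791 had an effect that differed from that at 48 h, and 667 had an estimate of the same sign at 48 h. All 1791 differed in the direction of the 24 h call. That direction follows largely from the choice of genes, because the effect they were called by is also part of the difference. Genes higher at 24 h had a median log2 difference of 0.48 at 24 h and −0.066 at 48 h, and genes lower had −0.496 and 0.125; the 24 h medians belong to genes chosen at 24 h. TAGLN was 78.1 ± 15.2 CPM in control and 64.6 ± 12 CPM in thrombin at 48 h, and 72.8 ± 5.77 CPM and 36.1 ± 0.951 CPM in the libraries labelled control and thrombin at 4 h (mean ± SD, n = 3). Its effect at 24 h exceeded that at 48 h by 2.79 ± 0.17 (SE, edgeR adjusted p = 9.85e-11). F2R was 192 ± 1.02 CPM and 210.1 ± 9 CPM at 48 h, a difference between effects of −0.96 ± 0.11 (SE, edgeR adjusted p = 9.76e-07). CXCL8 was 10.6 ± 2.03 CPM and 9.03 ± 3.41 CPM, a difference of 3.57 ± 0.69 (SE, edgeR adjusted p = 0.00385), and RARB was 3.35 ± 0.264 CPM and 2.91 ± 0.625 CPM, a difference of 2.73 ± 0.30 (SE, edgeR adjusted p = 6.23e-07). HMGCS1 was 845 ± 75.4 CPM in control and 856 ± 47.8 CPM in thrombin at 48 h, and the difference between effects was −0.65 ± 0.20 (SE, edgeR adjusted p = 0.0352). Leaving out single libraries of 24 h left between 733 and 1095 genes higher and between 732 and 1150 lower in this test; without control library 12 there were 732 lower.

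**Figure D4:**
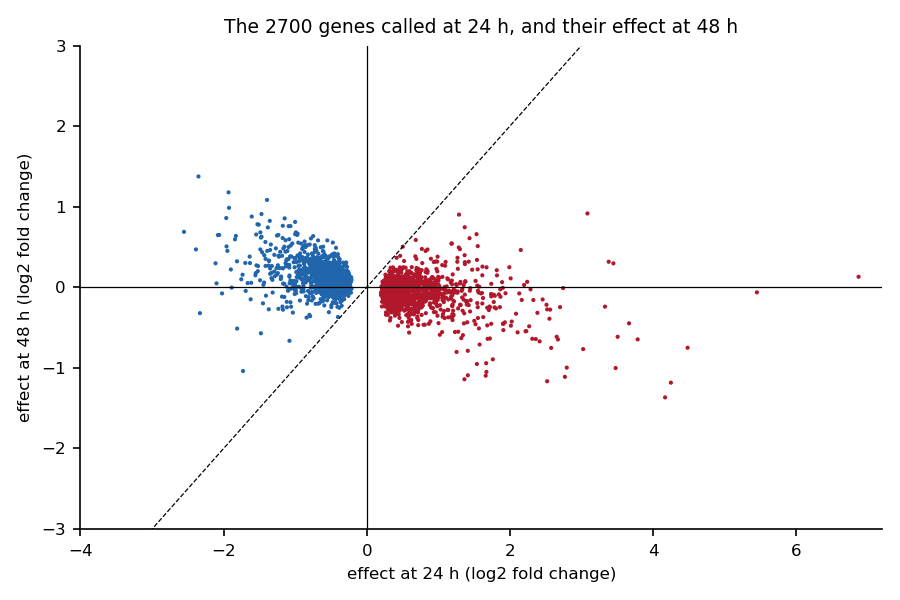
Log2 fold change of thrombin over control at 48 h (vertical axis) against that at 24 h (horizontal axis) for the 2700 genes called at 24 h, red where higher and blue where lower, with a dashed line where both effects would be equal. Few points lie near the dashed line; the median at 48 h is −0.066 for the genes higher at 24 h and 0.125 for the genes lower.

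Against 4 h, the effect at 24 h was higher in 2095 genes (13.6%) and lower in 2198 (14.3%), together 28% of those tested, and it differed in 2404 of the 2700 genes called at 24 h. NFATC2 was 6.16 ± 1.64 CPM in the libraries labelled control and 1.87 ± 0.389 CPM in those labelled thrombin at 4 h, the reverse order of 24 h, and its effect at 24 h exceeded that at 4 h by 5.39 ± 0.36 (SE, edgeR adjusted p = 8.34e-11). KRT34 was 53 ± 14.1 CPM and 10.9 ± 2.38 CPM at 4 h, and its difference between effects was 4.58 ± 0.37 (SE, edgeR adjusted p = 1.7e-07). PPL was 17.5 ± 6.81 CPM and 46.3 ± 6.5 CPM at 4 h, also in reverse, with a difference of −3.96 ± 0.36 (SE, edgeR adjusted p = 8.76e-07).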

How the data were processed

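Poly(A) RNA of 18 LX-2 libraries, thrombin and control at 4 h, 24 h and 48 h, was deposited as 1 table of whole-number counts per gene symbol. The tools named in the submitters' processing notes are DESeq2, SAMtools 1.21, Bowtie2 2.5.4 and cutadapt 4.9, with build GRCh38 (hg38); the counting tool, annotation and strand setting are not given in the sources used here, so overlapping and near-identical genes can share reads. The deposited counts were analysed without change. Genes were kept by edgeR's filterByExpr (15353 of 28278; 4439 symbols had no count). edgeR 4.0.16 (R 4.3.3, TMM factors 0.945 to 1.031, quasi-likelihood test, biological coefficient of variation 9.07%) was fitted over all 18 libraries with 1 mean per group, which leaves 12 residual degrees of freedom. The thrombin effect at 24 h, its difference from the effects at 48 h and 4 h, and control of 24 h against thrombin of 4 h were tested, with Benjamini-Hochberg adjusted p-values over all genes. Levels are CPM on TMM-scaled library sizes, as mean ± SD over 3 libraries. The SE of a log2 fold change is its absolute value divided by the square root of the F statistic of the quasi-likelihood test. It was not taken from the fit directly. Each of the 6 libraries of 24 h differed from its replicates by more than sampling noise (chi-square per degree of freedom 2.92 to 12).

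Members and the 57 gene lists were chosen with earlier results of these data known. Named were the 25 largest called fold changes in each direction at a mean of at least 1 CPM with groups that do not overlap, as far as space allowed, the 10 largest called differences in CPM in each direction, called members of the lists, fixed anchor genes, and the 5 largest differences between 24 h and 48 h in each direction; uncalled list members are given by value, and some genes are not reported here. The test was run on data simulated from the means and dispersions of the main fit, with 200 genes changed at 24 h. It recovered 71.6% of genes changed 1.5-fold, 89.9% of those changed 2-fold and 95.3% of those changed 4-fold, and 4.47% of calls were false. The simulation took its model from the test itself and changed far fewer genes than were called, so it cannot show how well that model describes these libraries. Symbols were matched to RefSeq (GRCh38.p14) for coordinates (27633, 97.7%) and promoters (11609 of the genes tested). Alternatives were another scaling, no filter, DESeq2 1.42.0, only the libraries of the times compared, a replicate block, and leaving out libraries.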

Additional observations from a re-analysis of the deposited data

Results flagged for a closer look

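The thrombin effect differed between times by a test of the difference itself. Against 48 h it was higher at 24 h in 1026 genes and lower in 1100, and against 4 h it was higher in 2095 and lower in 2198. The 5 largest rises relative to 48 h were those of NPPB, 5.53 on the log2 scale, KRTAP2-4, 5.51, KRTAP2-3, 5.23, KRT33B, 4.43, and KRTAP1-5, 4.12. The 5 deepest falls were those of SPRY1, −3.73, PPL, −3.24, PPARGC1A, −2.91, KCP, −2.82, and GASK1B, −2.47, a Golgi-associated kinase relative. KRTAP2-4 had 2 counts in the control libraries of 24 h, so its fitted difference depends on the prior count.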

How the results depend on the processing

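The counts of genes called at 24 h kept within 1.5 times of 1389 higher and 1311 lower under another scaling, no filter, DESeq2 (1501 and 1376), the 6 libraries of 24 h alone (1495 and 1305) and leaving out all libraries numbered 12 (1344 and 1114). Leaving out 1 library of 24 h gave 913 to 1283 higher and 785 to 1206 lower, 217 to 253 at least 2-fold higher and 118 to 157 at least 2-fold lower. For the effect against 48 h the ranges were 733 to 1095 higher and 732 to 1150 lower, and for control of 24 h against thrombin of 4 h 0 to 9 higher and 1 to 4 lower.

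Control of 24 h against thrombin of 4 h gave 30 higher and 38 lower genes without the filter, 19 and 12 with DESeq2, and 26 and 52 without the libraries numbered 12; the cause was not tested. The labels state no pairing, so the numbers were not used as pairs in the main fit. Deviations of 24 h libraries with the same number hardly correlated over all genes (−0.029, 0.017 and 0.057). A correlation over all genes cannot show that single genes lack an effect shared by libraries of the same number. With the replicate block the counts were 1370 higher and 1308 lower at 24 h, 237 and 150 at least 2-fold, 1039 and 1120 against 48 h, and 13 and 8 for control of 24 h against thrombin of 4 h. The block also gave 6 lower stellate cell markers in place of 3, and called COL3A1 lower (−0.74, adjusted p = 1.24e-06) and CCND1 higher (0.54, adjusted p = 0.00192).

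Of 221 called genes named, 220 kept their direction and call in every alternative that gave them a result, and THBD did not. DESeq2 gave a result for 219 of them, as did the fit of the 6 libraries of 24 h. The named genes were not a random draw from the called genes, so this share does not carry over to all calls. Those fell to as few as 913 higher and 785 lower when 1 library was left out. Uncalled genes whose sign changed when 1 library of 24 h was left out ranged in log2 difference as follows: CXCL12 from −0.27 to 0.02, DES from −0.43 to 0.80, MMP2 from −0.24 to 0.11, MRTFB from −0.04 to 0.08, NFKBIA from −0.05 to 0.20, SRF from −0.04 to 0.18, TGFB1 from −0.12 to 0.01, TGFBR1 from −0.08 to 0.07 and TGFBR2 from −0.03 to 0.03. TGFB1 was also at 0.01 without all libraries numbered 12. EGR1 and PDGFRB were called lower only without the filter, at −0.70 (adjusted p = 8.49e-10) and −0.29 (adjusted p = 0.0313), IL6 was called only with the 6 libraries of 24 h (0.0448), and ATF4 only without all libraries numbered 12 (0.0398). Dropping the filter lowered the adjusted p-values of EGR1, PDGFRB, COL3A1 and CCND1 but hardly moved their log2 differences. The libraries were the same, so these lower values are not added evidence, and their cause was not tested. Genes at a few counts per library had the widest errors.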
